A study of Mus musculus with 4 samples.

Results

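The genes of 7 matrix metalloproteinases (Mmp2, Mmp8, Mmp9, Mmp13, Mmp14, Mmp19 and Mmp25) and of 3 tissue inhibitors of metalloproteinases (Timp1, Timp2 and Timp3) were followed in RNA-seq of tibial bone marrow. They were taken by gene symbol, and all 10 were found among the 55401 genes of the deposited tables. The libraries came from wild-type male C57/B6 mice, 8 weeks old at the start, that were made obese on a high-fat diet (HFD). The mice of the obesity group (Ob, n = 2) received the HFD alone, and those of the exercise group (Ob + Exe, n = 2) also ran on a treadmill at moderate intensity for 12 weeks. Both groups thus share the diet, and no lean group was analysed here. The study used these libraries to ask how exercise remodels the bone marrow in diet-induced obesity.

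Matrix metalloproteinases are zinc-dependent endopeptidases that cleave collagens and other proteins of the extracellular matrix, and they are made as inactive proenzymes. The tissue inhibitors bind the active site of the enzymes and block it. In marrow, neutrophils store Mmp8, Mmp9 and Mmp25 in their granules, osteoclasts are rich in Mmp9, and osteoblasts, chondrocytes and stromal cells make Mmp13, Mmp2 and Mmp14.

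Values are FPKM, that is, fragments normalized to transcript length and library size, summed over the transcripts of a gene and scaled between libraries. Because FPKM is per length, levels can be compared between genes. Between 44310505 and 53038186 read equivalents (coverage times length over the read length) lay on transcripts in each library. The labels name bone marrow as tissue but also mesenchymal stem cells and fibroblast. Of the fibroblast and stroma markers, Pdgfra was between 0.265 and 0.385 scaled FPKM and Lum between 0.248 and 0.818, whereas Thy1 was between 3.11 and 8.87 and Cxcl12, a gene of marrow stroma, between 89.3 and 143. The neutrophil marker S100a8 was at 12006 or more in every library, and the values are those of mixed marrow cells. In such bulk RNA, fewer cells of a type and less RNA per cell cannot be told apart. With 2 mice against 2, an exact permutation test cannot give a two-sided p below 0.333. The p values below come from limma across the 18596 genes whose mean FPKM reached 0.1, and they measure only the spread between these 4 libraries.

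Mmp8 and Mmp9, genes of neutrophil enzymes, were by far the most abundant of the family. The clearest difference between the groups was in genes of low or moderate level. Mmp13 was about 3.02-fold lower in Ob + Exe than in Ob by the group means, and Mmp2 about 3.25-fold lower. Mmp8, Mmp9, Mmp25 and Timp2 had higher means in Ob + Exe, but their libraries overlapped between the groups. At the thresholds of the study, an unadjusted p under 0.05 with a log2 fold change beyond 1, only Mmp13 of the 10 genes was called. This compares with 3.71% of all genes tested, made up of 2.73% called lower and 0.979% called higher. Mmp13 and Mmp2 were the 2 members with a log2 fold change beyond 1 in size, a size reached by 15.8% of all genes. The groups did not overlap for 3 members (Mmp13, Mmp2 and Mmp14), all lower in Ob + Exe. Among all genes the groups did not overlap for 32.7%, and for 18.7% they were apart and lower. The count of 3 in 10 is close to the first of these shares. No member had an adjusted p under 0.05 in limma, and neither did any other gene, although 933 of them were under 0.05 unadjusted. The median log2 fold change was -0.33 over the 10 members and -0.02 over all genes tested.

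**Figure D1:**
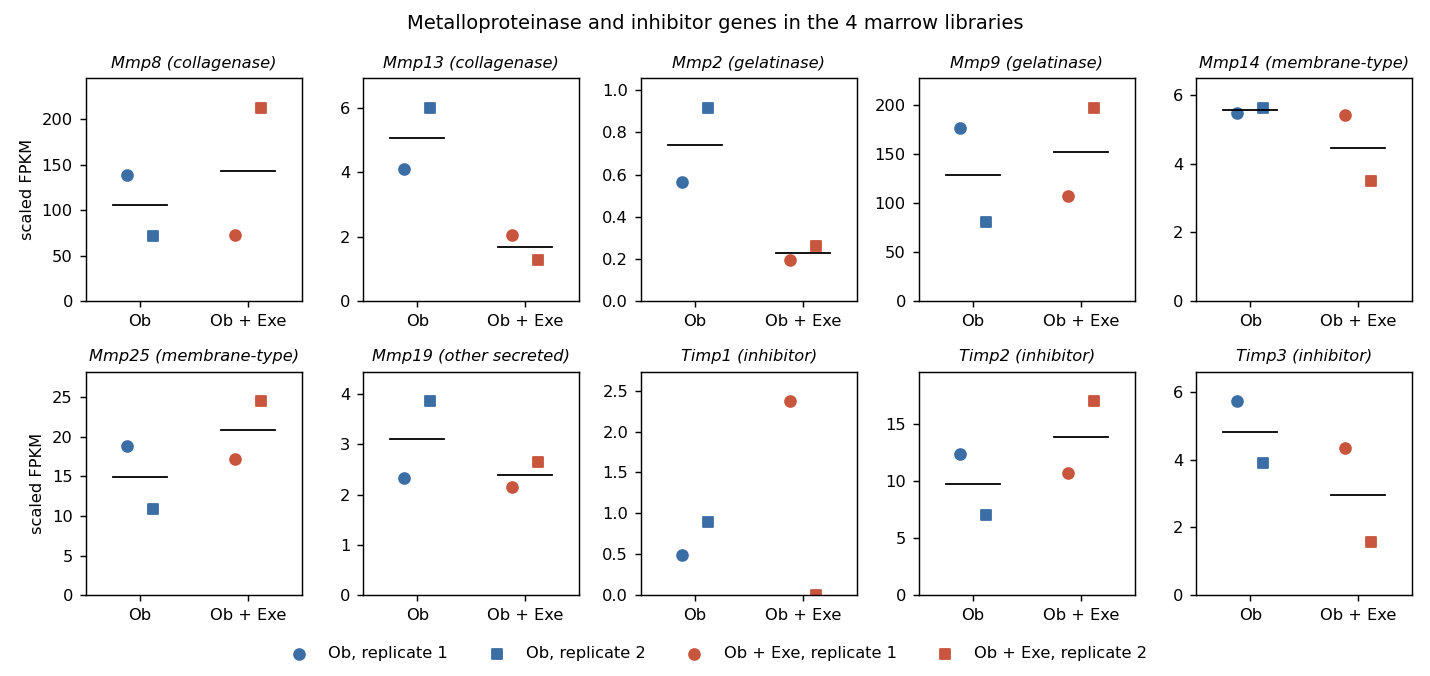
Scaled FPKM of each of the 10 genes (vertical axis, from 0, with its own scale in each panel) in the 2 Ob and the 2 Ob + Exe libraries. Circles are replicate 1, squares are replicate 2, and bars are group means, left out for Timp1, which is listed at 0 in 1 library. The Ob + Exe libraries lie below both Ob libraries for Mmp13, Mmp2 and, narrowly, Mmp14.

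The bases before the annotated start of 3 genes are shown here because Mmp13 carries the clearest difference, Mmp8 is the other collagenase gene and belongs to neutrophils, and Mmp14 is a further gene whose groups did not overlap. Each line holds the 130 bases before the start, 5′ to 3′ on the strand of the gene (plus for all 3), from RefSeq on GRCm38.p6 and counted from the start that RefSeq gives. Capitals mark matches, on either strand, to TGANTCA (AP-1), GAGGAAG (PU.1), TGTGGT (RUNX) or TTGCNNAA (C/EBP).
Mmp13, chr9:7272384-7272513: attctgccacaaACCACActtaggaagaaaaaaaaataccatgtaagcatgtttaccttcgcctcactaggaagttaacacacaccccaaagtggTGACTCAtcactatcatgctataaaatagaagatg
Mmp8, chr9:7558299-7558428: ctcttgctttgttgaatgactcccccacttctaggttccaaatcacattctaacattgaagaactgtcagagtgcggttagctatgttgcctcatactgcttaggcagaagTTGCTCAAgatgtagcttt
Mmp14, chr14:54431468-54431597: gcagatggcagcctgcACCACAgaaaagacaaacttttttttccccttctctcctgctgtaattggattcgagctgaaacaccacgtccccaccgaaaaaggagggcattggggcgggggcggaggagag
The Mmp13 stretch holds a match to AP-1 that begins 35 bases before the start and a match to RUNX that begins 118 bases before it. The Mmp14 stretch also holds a RUNX match, 114 bases before the start, whereas that of Mmp8 holds a C/EBP match 19 bases before it. In the full 250 bases before the start, the table held 7 of the 10 members. Mmp8 and Mmp25 each had a PU.1 match there, 220 and 13 bases before the start, and Timp1, Timp2 and Timp3 matched none of the 4 motifs. Among all 32851 windows of that length, 6.75% held the AP-1 letters, 10.6% the PU.1 letters, 14.0% the RUNX letters and 9.56% the C/EBP letters, with no overlap of motifs in the members. Such a match is a run of letters and not a measured binding site, and the motifs were chosen after the values were seen. Mmp2, Mmp9 and Mmp19 were not in the table.

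Among the collagenases, Mmp13 (collagenase-3, on chromosome 9 of GRCm38 from 7272514 to 7283331, plus strand, 1 annotated transcript) cleaves fibrillar collagen in bone and cartilage. In scaled FPKM it was at 4.11 and 6.01 in the Ob mice against 2.07 and 1.28 in the Ob + Exe mice. Both exercise libraries lay below both obesity libraries, and the highest of them was about as far from the lowest Ob library as the Ob libraries were from each other. The Ob mean of 5.06 ± 1.35 (SD, n = 2) compared with 1.68 ± 0.556 (SD, n = 2) after exercise. On the log2(FPKM + 0.1) scale the difference was -1.55 (standard error 0.405, 95% interval -2.55 to -0.55, adjusted p = 0.96 from limma). Mmp13 ranked 168 of all genes by its p value. The values rested on 747, 1067, 323 and 189 read equivalents. The call held under each alternative that kept all 4 libraries, with an adjusted p in limma from 0.242 to 0.994. It was lost without Ob replicate 1 (-1.82), without Ob replicate 2 (-1.28) and without Ob + Exe replicate 2 (-1.23), while the direction stayed.

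Osteoblast markers were set beside this difference, since these cells are a known source of Mmp13. Of 8 markers, 7 were tested. None of them was called higher, and Bglap2 was called lower (log2 difference -2.86 from limma, adjusted p = 0.96). The groups did not overlap for 4 of the 7, all lower in Ob + Exe. Among all genes tested, 18.7% were apart and lower. The summed scaled FPKM of the 8 markers was 15.4 and 23.7 in the Ob mice against 14.0 and 13.9 in the Ob + Exe mice, and Bglap2 was listed at 0 in Ob + Exe replicate 1. As a share of that sum, Mmp13 stood at 26.7% and 25.3% in the Ob mice against 14.8% and 9.24% in the Ob + Exe mice. The level of Mmp13 thus differed by more than the marker sum did. That sum is led by Runx2 and Ibsp, with log2 differences of -0.23 and -0.27. The log2 difference of Bglap2 was larger in size than that of Mmp13, but it rests on 36, 107, 0 and 19 read equivalents. Bglap, a further marker, was at 2.26 and 4.61 in the Ob mice against 3.41 and 1.42 in the Ob + Exe mice. Its groups overlapped, with a log2 difference of -0.53. Col2a1, the type II collagen gene of chondrocytes, was at 0.775 and 0.633 in the Ob mice against 0.188 and 0.190 in the Ob + Exe mice. Its groups were apart and lower in Ob + Exe, with a log2 difference of -1.47 (standard error 0.604, 95% interval -2.96 to 0.02, adjusted p = 0.96 from limma), and it was not called. Col2a1 was singled out after its values were seen. Acan, the cartilage aggrecan gene, did not reach the expression filter. It was listed at 0 in both Ob mice, and at 0 and 0.0624 in the Ob + Exe mice. The part of osteoblasts and chondrocytes in the result was not tested.

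Mmp8 (neutrophil collagenase, chromosome 9, 7558456 to 7568485, plus strand) is stored in the specific granules of neutrophils and cleaves fibrillar collagens. In scaled FPKM it was at 139 and 72.2 in the Ob mice against 72.5 and 213 in the Ob + Exe mice. The exercised mice thus gave the highest value and a value almost equal to the lowest. The log2 difference of 0.31 was smaller than its standard error (0.569, 95% interval -1.09 to 1.72, adjusted p = 0.976 from limma), and its sign turned when either replicate 2 library was left out (-0.16 without that of Ob, -0.46 without that of Ob + Exe). Of the summed level of both collagenase genes, Mmp13 made up 2.88% and 7.69% in the Ob mice against 2.78% and 0.599% in the Ob + Exe mice. The groups did not overlap, but the shares of Ob replicate 1 and Ob + Exe replicate 1 were almost equal.

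The gelatinases digest denatured collagen and the type IV collagen of basement membranes. Mmp9 (gelatinase B, chromosome 2, 164940780 to 164955850, plus strand) was the most abundant member, at 176 and 80.4 scaled FPKM in the Ob mice against 107 and 198 in the Ob + Exe mice. The groups overlapped, and the libraries differed more within each group than the group means did. The log2 difference was 0.29 (standard error 0.464, 95% interval -0.86 to 1.44, adjusted p = 0.976 from limma). It was -0.28 without Ob replicate 2 and -0.15 without Ob + Exe replicate 2, so the sign rested on these libraries. The full-length transcript of 13 exons carried 95.6% of the gene's level.

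Mmp2 (gelatinase A, chromosome 8, 92827291 to 92853420, plus strand) is made mainly by mesenchymal cells and is activated at the cell surface by Mmp14 together with Timp2. It was the member with the lowest mean, at 0.564 and 0.917 scaled FPKM in the Ob mice against 0.195 and 0.261 in the Ob + Exe mice. Each exercised mouse was below each Ob mouse, by a gap of similar size to the difference between the Ob mice. The means were 0.741 ± 0.249 (SD, n = 2) and 0.228 ± 0.0467 (SD, n = 2). The log2 difference of -1.33 (standard error 0.618, 95% interval -2.86 to 0.20, adjusted p = 0.96 from limma) did not pass the thresholds, except without the intensity trend in limma. Few reads stood behind these values, 118 and 187 read equivalents for the Ob mice against 35 and 44 after exercise, and with a pseudocount of 1 the difference was -0.50.

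The 8 markers of marrow stroma and fibroblasts were set beside Mmp2, and none of them was called. Their summed scaled FPKM was 107 and 161 in the Ob mice against 108 and 160 in the Ob + Exe mice, a sum led by the chemokine gene Cxcl12 (93.1, 143, 89.3 and 141). Relative to this sum, Mmp2 was at 0.528% and 0.570% in the Ob mice against 0.181% and 0.164% in the Ob + Exe mice. These shares did not overlap between the groups, but most of the sum is Cxcl12. The part of stromal cells in the result was not tested.

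Among the membrane-type enzymes, Mmp14 (MT1-MMP, chromosome 14, 54431612 to 54445364, plus strand) is a collagenase anchored in the plasma membrane. It stood at 5.48 and 5.63 scaled FPKM in the Ob mice against 5.43 and 3.501 in the Ob + Exe mice. Ob + Exe replicate 1 was almost level with the Ob libraries, and the log2 difference was -0.34 (standard error 0.327, 95% interval -1.15 to 0.47, adjusted p = 0.96 from limma). Without Ob + Exe replicate 2 it was -0.03. With limma voom on read equivalents the groups overlapped.

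Mmp25 (MT6-MMP, chromosome 17, 23628311 to 23645277, minus strand) is held on the neutrophil surface and granules by a lipid anchor. The scaled FPKM of Mmp25 was 18.8 and 10.9 in the Ob mice against 17.2 and 24.5 in the Ob + Exe mice, and the groups overlapped. The log2 difference was 0.51 (standard error 0.343, 95% interval -0.33 to 1.36, adjusted p = 0.96 from limma). It ranged from 0.13 without Ob replicate 2 to 0.90 without Ob replicate 1. Mmp19 (chromosome 10, 128790910 to 128800824, plus strand), a secreted enzyme outside the collagenase and gelatinase groups, was at 2.34 and 3.86 in the Ob mice against 2.15 and 2.64 in the Ob + Exe mice. These values overlapped, and the log2 difference was -0.32 (standard error 0.395, adjusted p = 0.971 from limma), turning to 0.03 without Ob replicate 2.

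Among the inhibitors, Timp2 (chromosome 11, 118301069 to 118355740, minus strand) was the most abundant, at 12.4 and 7.04 scaled FPKM in the Ob mice against 10.7 and 17.0 in the Ob + Exe mice. It made up between 59.4% and 91.5% of the summed level of the 3 inhibitor genes. The groups overlapped, with a log2 difference of 0.53 (standard error 0.379, 95% interval -0.41 to 1.46, adjusted p = 0.96 from limma). It was 0.12 without Ob replicate 2, 0.19 without Ob + Exe replicate 2 and 0.93 without Ob replicate 1.

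Timp3 (chromosome 10, 86300372 to 86349506, plus strand), the inhibitor that is bound to the matrix, stood at 5.73 and 3.91 in the Ob mice against 4.36 and 1.57 in the Ob + Exe mice. The groups overlapped, with Ob replicate 1 highest and Ob + Exe replicate 2 lowest. The log2 difference was -0.83 (standard error 0.539, 95% interval -2.16 to 0.51, adjusted p = 0.96 from limma), and without that library it was -0.12. Without Ob + Exe replicate 1 it was -1.53 and was called.

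Timp1 (chromosome X, 20870166 to 20874735, plus strand), an inducible secreted inhibitor, is listed at 0.489 and 0.897 in Ob, at 2.37 in Ob + Exe replicate 1 and at 0 in Ob + Exe replicate 2. The libraries of the exercise group were thus the highest and the lowest. The values rest on 28, 53, 122 and 0 read equivalents. Timp1 lies within the span of Syn1 on the opposite strand, and the Syn1 gene held 86, 76, 90 and 183 read equivalents in the same order. The library kit is not described as keeping the strand. Only spans were compared here and not exons, so whether reads of both genes were mixed was not tested. The fitted log2 difference of Timp1 was -0.63 (adjusted p = 0.98 from limma) but 0.13 with a pseudocount of 1 and -2.17 with limma voom, and no direction is given for it. Timp3 likewise lies within the span of Syn3 on the opposite strand, which was at 0.264 scaled FPKM or less in every library. In part, Mmp19 overlaps Tmem198b and Mmp25 overlaps Gm49935, both on the opposite strand. Gm49935 was at 0.434 and 0.327 in Ob against 1.39 and 6.40 in Ob + Exe.

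**Figure D2:**
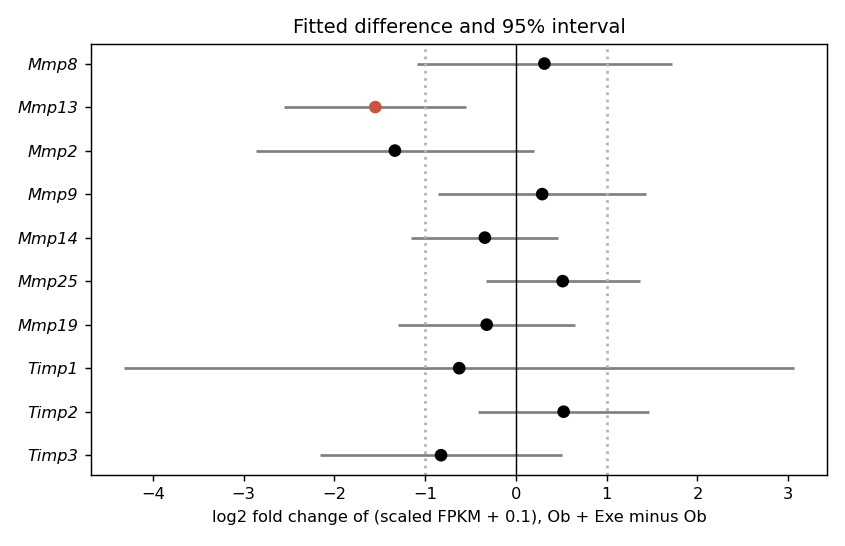
Log2 difference of each member (Ob + Exe minus Ob, on the log2(scaled FPKM + 0.1) scale) as a point, with its 95% interval from limma as a bar. Dotted lines mark a log2 fold change of 1 in either direction, and the red point is the called gene. The interval of Mmp13 (-2.55 to -0.55) lies below 0, and the other 9 intervals include 0.

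By their mean over the 4 libraries, the levels ran from Mmp9 (140 scaled FPKM) and Mmp8 (124) to Mmp25 (17.9), Timp2 (11.8), Mmp14 (5.01), Timp3 (3.89), Mmp13 (3.37), Mmp19 (2.75) and Mmp2 (0.484), with Timp1 listed between 0 and 2.37. Among the genes tested Mmp9 and Mmp8 stood at percentiles 98.1 and 97.7 of level, and Mmp2 at percentile 23.7. Neighbours in this order overlapped across libraries, except that the lowest value of Timp2 (7.04) was above the highest of Mmp14 (5.63), that Mmp25 (highest 24.5) did not reach Mmp8 (lowest 72.2), and that Mmp2 (highest 0.917) did not reach Mmp19 (lowest 2.15). The summed level of the 7 enzymes was 346 and 180 in the Ob mice against 207 and 443 in the Ob + Exe mice, and Mmp8 and Mmp9 made up 84.8% to 92.7% of it. The sum of the 3 inhibitors was 18.6 and 11.8 in the Ob mice against 17.4 and 18.6 in the Ob + Exe mice. The enzyme sum was therefore 18.6 and 15.2 times the inhibitor sum in the Ob mice against 11.9 and 23.9 times in the Ob + Exe mice. The Ob + Exe values lay on either side of both Ob values, and the groups were not apart in this balance of RNA levels.

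**Figure D3:**
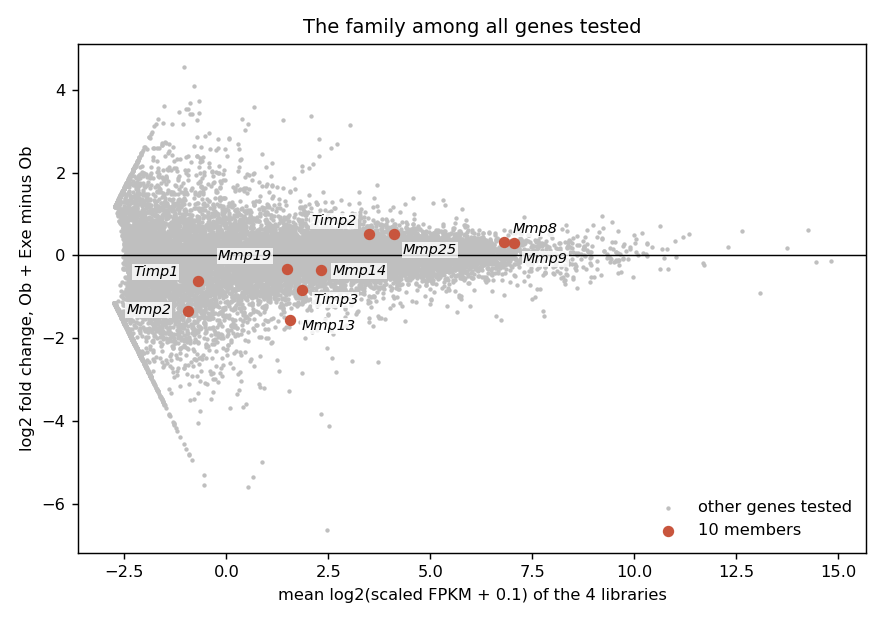
Log2 fold change (vertical axis, Ob + Exe minus Ob) against mean log2(scaled FPKM + 0.1) over the 4 libraries (horizontal axis) for the 18596 genes tested in grey and the 10 members in red. Mmp8 and Mmp9 sit at the right, near 0.31 and 0.29, and Mmp13 (-1.55) and Mmp2 (-1.33) are the lowest members.

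Mmp8, Mmp9, Mmp25 and Timp2 ordered the libraries alike, with Ob replicate 2 lowest, then Ob + Exe replicate 1, Ob replicate 1 and Ob + Exe replicate 2. The 10 neutrophil markers, summed, gave the same order, at 47620 and 27416 scaled FPKM in the Ob mice against 35308 and 63054 in the Ob + Exe mice. This sum is led by S100a8 and S100a9, and 5 of the 10 markers had its order by themselves. None of the 10 markers was called, and none was at 0. The groups were apart for 2 of them (Camp and Csf3r), both higher in Ob + Exe. Among all genes tested they were apart for 32.7%. The part of neutrophil content in these members was not tested.

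Within a library, the ratios between these members varied less than their levels. Mmp25 was 1.52 and 1.55 times the level of Timp2 in the Ob mice against 1.61 and 1.44 times in the Ob + Exe mice. Mmp9 was 14.3 and 11.4 times the level of Timp2 in the Ob mice against 10.03 and 11.6 times in the Ob + Exe mice, and its ratio to Mmp8 ran from 0.927 to 1.48.

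For the most abundant member of each role, the 3 genes with the most similar pattern were taken from the 5818 genes whose mean FPKM reached 10, by the root mean square difference of centred log2 values. Only 4 libraries enter this measure. The nearest gene to Mmp9 was Lcn2, at a difference of 0.01001. Lcn2 encodes lipocalin-2, a protein of neutrophil granules. The scaled FPKM of Lcn2 was 1722 and 784 in the Ob mice against 1045 and 1895 in the Ob + Exe mice, which is 9.76, 9.75, 9.74 and 9.59 times the level of Mmp9. Hsd11b1 (0.0583) and Zmpste24 (0.0821) followed. For Mmp8 the nearest were Slc35a5 (0.0917), Cpne3 (0.102) and Tmem71 (0.106), for Mmp25 they were Rflnb (0.0229), Gsn (0.0340) and Lrg1 (0.0427), and for Timp2 they were Cmtm6 (0.0226), Lrg1 (0.0391) and Mmp25 itself (0.0560).

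**Figure D4:**
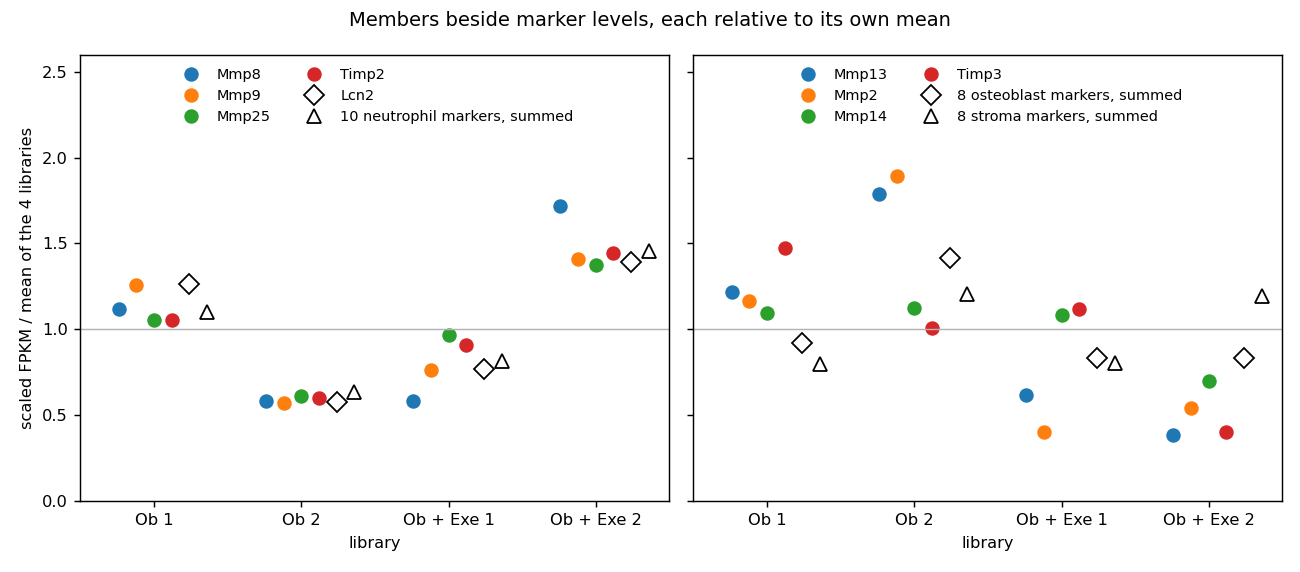
Scaled FPKM of each gene or marker sum, divided by its own mean over the 4 libraries (vertical axis), in each library (horizontal axis). Filled circles are members, and open symbols are Lcn2 and the summed neutrophil markers (left) or the summed osteoblast and stroma markers (right). On the left every symbol is lowest in Ob replicate 2 and highest in Ob + Exe replicate 2, and on the right Mmp13 and Mmp2 are below 1 in both Ob + Exe libraries.

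The rest of the family was examined from a list of 17 further genes. In all 4 libraries 6 of them were listed at 0 (Mmp1a, Mmp1b, Mmp3, Mmp7, Mmp10 and Mmp20), and 6 genes passed the expression filter. Mmp23, an unusual member that lacks the hemopexin domain of most of the enzymes, was called higher. In scaled FPKM it was at 0.839 and 0.447 in the Ob mice against 2.98 and 2.47 in the Ob + Exe mice, a log2 difference of 1.97 (standard error 0.478, adjusted p = 0.96 from limma). These values rest on 71, 38, 126 and 129 read equivalents, and both exercise libraries lay above both obesity libraries. The read equivalents, which are not scaled for depth, differed by less between the groups than the FPKM did. The cause was not tested. Mmp11 was at 0.983 and 0.904 in Ob, at 0.834 in Ob + Exe replicate 1 and listed at 0 in Ob + Exe replicate 2. Its span overlaps that of Chchd10, and it was not called (adjusted p = 0.96 from limma). The spans of Mmp24 and Mmp28 also overlap genes on the opposite strand. That of Mmp28 overlaps 1700020L24Rik, at 43.2 to 49.6 scaled FPKM. The groups overlapped for Mmp24 (0 and 0.104 in the Ob mice, 0.802 and 0 in the Ob + Exe mice), Mmp27 (0.969 and 1.21 in the Ob mice, 0.687 and 0.999 in the Ob + Exe mice), Mmp28 (1.33 and 1.14 in the Ob mice, 1.59 and 0.377 in the Ob + Exe mice) and Timp4 (0.0529 and 0.220 in the Ob mice, 0.137 and 0.0306 in the Ob + Exe mice), and none of these 4 was called.

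Genes that control or bind the metalloproteinases were taken from a list of 24, of which 17 were tested and none was called. Of these, 10 had a log2 fold change above 0 and 7 below it, with a median of 0.21. The groups were apart for 7 of the 17, 5 higher and 2 lower in Ob + Exe, beside 32.7% of all genes tested. Apart from Lcn2, the most abundant were Elane (neutrophil elastase; 436 and 201 in the Ob mice, 393 and 345 in the Ob + Exe mice), Bsg (basigin, an inducer of metalloproteinases; 259, 259, 230 and 245) and Cd63 (a tetraspanin that binds Timp1; 140, 113, 161 and 160). The log2 difference was -0.12 for Bsg and 0.35 for Cd63, whose groups were apart, and 0.31 for Elane, whose groups overlapped. Elane is also counted among the 10 neutrophil markers.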

How the data were processed

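RNA-seq libraries of 2 Ob and 2 Ob + Exe mice were analysed. After trimming with fastp and removal of rRNA reads, the authors aligned to GRCm38 with HISAT2, filtered with SAMtools and quantified GENCODE transcripts with StringTie. Tool versions are not given in the sources used here. The authors deposited, for each of 142604 transcripts, its length, its read coverage (a signal not normalized for depth) and its FPKM.

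Transcript FPKM were summed per gene, divided by median-of-ratios factors (0.949 to 1.03, computed on genes whose mean FPKM reached 1) and tested as log2(FPKM + 0.1) with limma 3.58.1 in R 4.3.3 (moderated fit with a trend on intensity, leaving 2 residual degrees of freedom, and Benjamini-Hochberg adjustment over all 18596 genes tested). The study's own test, DESeq2, takes counts and was not used. Fold changes on this scale understate those of low genes. Read equivalents are coverage times length over 150 bases. The test was tested on simulated data. Python 3.11.15, pandas 2.3.3 and matplotlib 3.10.9 were used.

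Members and lists were chosen with earlier results of these data known. All 10 members were named. From each list the text names the called genes and up to 4 of the most abundant, and all further family genes that passed the filter. Other markers, Col2a1, Col1a2 and Acan were chosen after their values were seen, and so were the promoter motifs. The alternatives were other filters, pseudocounts and scalings, limma voom, no intensity trend, the replicate block, transcripts of at least 500 bases and leaving out each library.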

Additional observations from a re-analysis of the deposited data

How the results depend on the processing

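Among all genes, 690 were called. This number was 267 with a minimum mean FPKM of 1, 224 with a pseudocount of 1, 450 with limma voom on read equivalents and 1061 without the intensity trend, and it ran from 745 to 1922 with a library left out (862 without Ob replicate 1, 1922 without Ob + Exe replicate 2, 1262 without Ob + Exe replicate 1). Called members numbered 2 (Mmp13 and Mmp2) without the intensity trend and from 0 to 3 with a library left out (Mmp13, Timp1 and Timp3 without Ob + Exe replicate 1), and members whose groups did not overlap numbered from 4 to 9 then, where 1 library stood against 2. With a minimum mean FPKM of 1, Mmp2 and Timp1 were not tested. The log2 difference of Timp1 was 0.13 with a pseudocount of 1. With a library left out, it ranged from -2.94 to 1.69 for Timp1, -0.46 to 1.09 for Mmp8, -0.28 to 0.86 for Mmp9 and -0.67 to 0.027 for Mmp19. The cause was not tested, but a lone library is assumed to vary like the others. Over the members, 135 of the alternative values kept direction and call and 7 turned direction. The rest kept direction but changed in call. As only Mmp13 was called in the main fit, the count of 135 says little about the other members. The shared replicate numbers are not described as pairs, and the correlation of the replicate differences of the groups was -0.106. Under the replicate block the calls numbered 776 and the genes at an adjusted p under 0.05 numbered 28, no member among them. With the crossed pairing, added after seeing the data, these numbers were 782 and 6. Depth was lowest for Mmp2 and Timp1, with at most 187 and 122 read equivalents in a library.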

Other observations

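Relatives of the family, the ADAM and ADAMTS metalloproteinases, were taken from a list of 20 genes, of which 13 were tested and none was called. Adam8, a membrane protease of neutrophils and macrophages, had the smallest p of the list. Adam8 was at 39.5 and 48.4 in the Ob mice against 91.6 and 67.8 in the Ob + Exe mice, and both exercise libraries lay above both obesity libraries. The log2 difference was 0.85 (standard error 0.242, 95% interval 0.25 to 1.45, adjusted p = 0.96 from limma), short of the fold threshold. It was singled out after its values were seen. Adam10, a widely expressed sheddase, was at 57.4 and 52.5 in the Ob mice against 39.7 and 70.02 in the Ob + Exe mice, which overlapped.

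Matrix proteins that the enzymes cleave were taken from a list of 22 genes, of which 21 were tested. Col1a1, a chain of type I collagen, and Spp1 were called lower. Col1a2, the other chain of type I collagen, was at 6.27 and 6.41 in Ob against 5.02 and 7.28 in Ob + Exe. Its groups overlapped, and it was not called. Col1a1 was at 3.13 and 3.05 scaled FPKM in the Ob mice against 1.18 and 1.84 in the Ob + Exe mice (log2 difference -1.02, adjusted p = 0.96 from limma), and Spp1 (osteopontin) at 30.3 and 45.1 in the Ob mice against 14.6 and 19.8 in the Ob + Exe mice (log2 difference -1.11, adjusted p = 0.96 from limma). The groups were apart for 12 of the 21, 6 higher and 6 lower, beside 32.7% of all genes tested. The median log2 difference of the list was 0.13. Fibronectin (Fn1), the most abundant of the list, was at 39.5 and 47.7 in the Ob mice against 51.5 and 63.1 in the Ob + Exe mice and was not called. Its read equivalents, not scaled for depth, were 19141 and 12590 against 12156 and 14951. Ob replicate 1 was thus lowest in FPKM but highest in read equivalents.

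Among the osteoclast markers, Atp6v0d2, a proton pump subunit, was the only called gene of the 5 tested and was higher in Ob + Exe, at 4.81 and 10.2 in the Ob mice against 23.1 and 23.2 in the Ob + Exe mice (log2 difference 1.71, adjusted p = 0.96 from limma). Acp5, a further osteoclast marker, was at 45.9 and 58.7 in the Ob mice against 52.6 and 37.9 in the Ob + Exe mice, and the groups overlapped. Of the markers of other cells, Cd79a, a part of the B cell receptor, was called lower (48.3 and 44.6 in the Ob mice, 21.6 and 23.4 in the Ob + Exe mice), and Acta1, skeletal muscle actin, was called higher (2.58 and 1.002 in the Ob mice, 4.65 and 5.24 in the Ob + Exe mice), each without passing adjustment.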
